A study of Mus musculus with 3 samples.

Results

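Among lineage-negative, Kit-positive (LK) cells of mouse bone marrow, a class of 107 cells carried RNA of the Rh blood group gene Rhd together with RNA of the erythroid genes Klf1 or Car1. Members were chosen by these measured values: LK cells with at least 1 Rhd unique molecular identifier (UMI, 1 tagged RNA molecule) and at least 1 UMI of Klf1 and Car1 summed. They made up 107 of the 3464 LK cells that passed the cell filter, of 8824 cells in all 3 libraries. The share of LK was 3.09% (exact 95% Clopper-Pearson interval 2.54% to 3.72%). The class they were set against was 285 LK cells with no Rhd UMI and at least 5 UMIs of Klf1 and Car1 summed, called Rhd-zero erythroid cells here.

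The study profiled single-cell RNA from mouse marrow in LK, LSK (lineage-negative, Sca-1-positive, Kit-positive) and TBM (total bone marrow) gates, with 1 library per gate and droplet chemistry from 10x Genomics (3' kit, v2). Marrow of leg, hip and spine bones was the source, and the antibody cocktail for lineage depletion included Ter119, which binds erythroid cells from the erythroblast stages on. All libraries were sorted by flow cytometry, and no genotype, agent, strain, age or sex of the mice is given in the labels. With 1 library per gate, no difference has a replicate check, so no test was made and every interval covers counting error alone.

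Red cell development starts from Kit-positive progenitors in which the transcription factor GATA1 takes over from GATA2 and erythropoietin signalling sustains survival. KLF1, an erythroid zinc finger factor, activates genes of the red cell membrane, heme synthesis and adult globins. RhD and its partner RhAG form the Rh complex of the red cell membrane, and transferrin receptor, heme enzymes and finally globin RNA follow as cells mature.

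The 250 bases before the start of Rhd and of the 2 other genes that mark these cells, Klf1 and Ermap, are shown because they carry or lack the letters AGATAA, a binding motif of GATA factors. Sequences and gene starts come from RefSeq on GRCm38.p6, and sequences are written 5′ to 3′ on the strand of the gene, at chr4:134864286-134864535 (plus strand) for Rhd, chr8:84901732-84901981 (plus strand) for Klf1 and chr4:119189996-119190245 (minus strand) for Ermap. Capitals mark AGATAA. By GENCODE M21, whose starts for Klf1 and Ermap differ slightly, the genes themselves lie at chr4:134864536-134896172 (Rhd), chr8:84901928-84905291 (Klf1) and chr4:119175457-119190011 (Ermap), and all 3 code for proteins.
Rhd: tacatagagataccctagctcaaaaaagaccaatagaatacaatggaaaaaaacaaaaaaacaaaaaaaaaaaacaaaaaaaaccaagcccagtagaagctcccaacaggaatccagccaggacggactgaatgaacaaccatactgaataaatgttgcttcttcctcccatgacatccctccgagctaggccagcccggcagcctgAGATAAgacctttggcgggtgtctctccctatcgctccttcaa
Klf1: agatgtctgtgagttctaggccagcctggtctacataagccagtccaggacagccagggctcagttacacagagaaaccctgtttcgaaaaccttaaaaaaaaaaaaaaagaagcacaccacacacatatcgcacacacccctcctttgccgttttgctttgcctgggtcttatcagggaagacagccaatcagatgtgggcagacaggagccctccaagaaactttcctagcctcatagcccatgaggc
Ermap: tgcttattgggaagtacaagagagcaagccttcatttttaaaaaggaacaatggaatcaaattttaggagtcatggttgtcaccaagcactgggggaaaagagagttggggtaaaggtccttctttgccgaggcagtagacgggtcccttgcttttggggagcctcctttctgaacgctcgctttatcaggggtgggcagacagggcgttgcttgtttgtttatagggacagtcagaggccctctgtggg
AGATAA was found in Rhd, beginning 43 bases before the start, and was not found on either strand in the windows of Klf1 and Ermap. Other forms of the GATA motif were not searched. The windows of Klf1 and Ermap both hold TTATCA, which reads TGATAA on the other strand and differs from AGATAA in the first base. They are thus not shown to lack a GATA motif. CCACACCC, a motif bound by KLF1, was found in none of these 3 windows on either strand, and the 2 motifs share no overlap. Of the 15 genes with the highest ratio in Rhd-positive LK cells (named below), 13 had an entry, and 0 of 13 held AGATAA and 0 of 13 CCACACCC. Of the 15 with the lowest ratio, 13 had an entry, 1 of which held AGATAA and 2 CCACACCC. The share among all 27025 genes with an entry was 10.3% for AGATAA and 3.19% for CCACACCC. These are letter matches in a short window and say nothing of whether a factor binds.

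Rhd, Klf1 and Car1 chose the cells, so their values are a description. Members held 1 to 26 Rhd UMIs (median 3), and 3 to 273 UMIs of Klf1 and Car1 summed (median 84), against 5 to 104 (median 13) in Rhd-zero erythroid cells. Just inside the Rhd threshold stood 33 members with exactly 1 Rhd UMI, which held a median of 48 UMIs of Klf1 and Car1. Just outside it stood the Rhd-zero erythroid cells, 101 of which had at least 20 UMIs of Klf1 and Car1. Just outside the Klf1 and Car1 threshold stood 9 LK cells with 1 Rhd UMI and no Klf1 or Car1 UMI. All 9 were rich in neutrophil granule RNA (median 514 UMIs of Mpo, Elane, Prtn3 and Ctsg) and had no Ermap UMI. A further 455 LK cells had no Rhd UMI and 1 to 4 UMIs of Klf1 and Car1, and 2608 had none of the 3 genes. Of the 649 Rhd UMIs in LK, 640 (98.6%) lay in members. As a measure of free RNA and misassigned reads, a Rhd UMI was seen in 9 of 1960 granule-rich LK cells of neither class (0.459%). Their median depth was 18455 UMIs. A Klf1 UMI was seen in 46 of them (2.35%) and a Car1 UMI in 169 (8.62%). The 4 members and 6 Rhd-zero erythroid cells with at least 50 granule UMIs were left out, so these shares are low in part by the choice of cells.

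**Figure D1:**
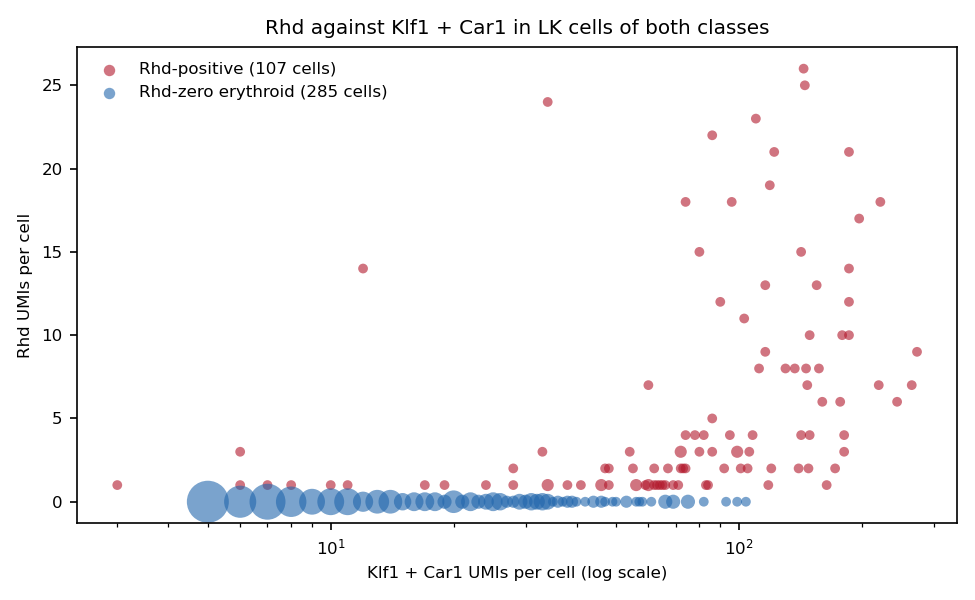
Rhd UMIs per cell (y axis) against Klf1 plus Car1 UMIs per cell (x axis, log scale) in the 107 Rhd-positive and 285 Rhd-zero erythroid LK cells; point area grows with the number of cells at that position. Rhd-zero cells reach 104 Klf1 and Car1 UMIs, and most members with 5 or more Rhd UMIs lie at the right.

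Of the erythroid markers that the rule did not use, Gata1, Aqp1, Epor and Ermap were present in most members, and Rhag, given below, was not. Icam4, another of these markers, had 200 UMIs in members and 283 in Rhd-zero erythroid cells, a log2 ratio of -0.57. Members were also the deeper cells, so the counts of cells with a UMI are not at like depth in the 2 classes. Gata1, the central erythroid transcription factor, had UMIs in 98 of the 107 members and 181 of the 285 Rhd-zero erythroid cells, and Aqp1, the red cell water channel, in 106 and 244. Epor, the erythropoietin receptor, had UMIs in 76 and 61 cells of the 2 classes, and Ermap, an erythroid membrane-associated protein, in 82 and 51. Genes of hemoglobin-making erythroblasts were at or near 0. Slc4a1, the band 3 anion exchanger, had 0 UMIs in 2473619. The floor of 3 UMIs used for such genes stands at 1.21 CPM in this class (counts per class, scaled to the same total in every class). Alas2, the erythroid enzyme that starts heme synthesis, had 3 UMIs, and the 4 adult globin genes Hba-a1, Hba-a2, Hbb-bs and Hbb-bt together held 245 UMIs, 0.00994% of the total. In the same markers the Rhd-zero erythroid cells had 0 UMIs of Slc4a1 and Alas2 and 21 of the adult globins. The label erythroid progenitor matches these markers, whereas how late the members stand against Rhd-zero erythroid cells rests on the differences given below, many of which were smaller at matched depth.

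**Figure D2:**
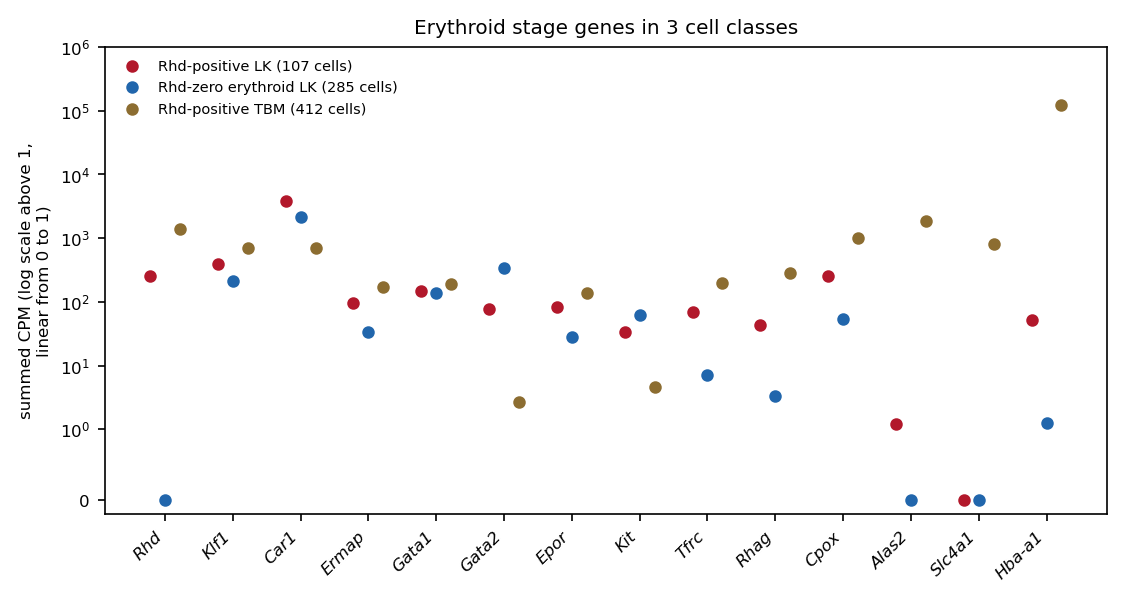
Summed CPM (y axis, log scale above 1 and linear from 0 to 1) of 14 genes in Rhd-positive LK, Rhd-zero erythroid LK and Rhd-positive TBM cells. Slc4a1 is at 0 in both LK classes, and Hba-a1 is at 51.3 CPM in Rhd-positive LK cells.

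Members were the deeper cells, and this touches every comparison below. Their median was 23234 UMIs per cell (1019 to 57994) and 4293 genes, against 7002 UMIs (3260 to 28679) and 2324 genes in Rhd-zero erythroid cells and 13698.5 UMIs over all LK cells. When each cell was thinned to 5000 UMIs, 106 members had a median of 1872.5 genes and 227 Rhd-zero erythroid cells of 1867. Mitochondrially encoded UMIs made up 2.15% in members and 2.10% in Rhd-zero erythroid cells. Because depth moved with the Rhd rule, gene and list ratios between the 2 classes are given a second time for the 35 members and 64 Rhd-zero erythroid cells with 10000 to 20000 UMIs, called the depth window. Its medians were 13897 and 12579 UMIs, and 21 of its 35 members had exactly 1 Rhd UMI. Members with 5 or more Rhd UMIs numbered 2 in the window and 39 in all cells. The medians of Klf1 and Car1 summed were 60 and 32 UMIs in the window, against 84 and 13 in all cells. The window thus changed which erythroid cells were compared as well as their depth, and smaller differences in it are not an effect of depth alone. Equal depth was also set in another way, by thinning all cells to 5000 UMIs before the rule, which left 65 members and 230 Rhd-zero erythroid cells. The 2 settings gave different values. After thinning, the median log2 ratio was 1.57 for erythroid progenitor, 0.86 for heme synthesis and -2.45 for immediate early genes, near the values of all cells given below, whereas in the depth window it was 0.39, 0.40 and -0.52. Thinning removes UMIs from every cell but keeps cells that were deep and shallow before it, and the part of depth in the differences cannot be told apart from that of the Rhd rule.

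RNA of other lineages was low in members but not absent. Granule UMIs (Mpo, Elane, Prtn3, Ctsg) had a median of 9 per member and 3 per Rhd-zero erythroid cell, and 4 and 6 cells of the 2 classes held at least 50. One member held 34.1% of the granule UMIs of its class. Of the megakaryocyte genes Pf4, Itga2b, Gp9 and Vwf, UMIs were seen in 35 members, and 1 member held 69.4% of them. Of the mast and basophil genes Cpa3, Ms4a2, Gzmb, Prss34 and Mcpt8, Gzmb was at 0 and UMIs were seen in 19 members. Of the stem cell genes Mecom, Hlf, Procr, Mllt3, Ly6a and Cd34, Mecom, Procr and Ly6a were at 0. UMIs of the others were seen in 68 members and 85 Rhd-zero erythroid cells had a UMI of the list. The summed level of the list was 64.3 CPM in members and 60.4 CPM in Rhd-zero erythroid cells. Of the member barcodes, 1 also occurred in another library.

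Against Rhd-zero erythroid cells, Rhd-positive LK cells had more RNA of most erythroid progenitor genes and of many heme synthesis and S phase genes. They had less RNA of immediate early genes, early progenitor transcription factors and most genes of the mast, megakaryocyte and stem lists. The differences were smaller in the depth window. Of 6690 genes with at least 50 UMIs over both classes (the 3 rule genes left out), 301 were at least 2-fold higher (4.5%) and 661 at least 2-fold lower (9.88%). The median log2 ratio of all these genes was 0.02. With a median-ratio size factor in place of totals, the median was -0.13, and higher genes made up 20.4% instead of 31.3% of those past 2-fold. In the depth window, 9 of 3482 measured genes were at least 2-fold higher (0.258%) and 70 at least 2-fold lower (2.01%). Of the 301 higher genes, 114 were measured in the window, where 107 kept the direction, 7 were past 2-fold, and the median log2 ratio was 0.38. Of the 661 lower genes, 244 were measured there, 230 kept the direction, 39 were past 2-fold, and the median was -0.48. The window's cells are among the cells of the full comparison, so these counts are not independent of it.

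The 15 genes with the highest ratios included a signalling enzyme, a cyclin, membrane proteins and metabolic enzymes. Sphk1 (chr11:116530925-116536674), which makes sphingosine-1-phosphate, was at 0 to 18 UMIs per member (median 3) and had 436 UMIs in the class, against 0 to 3 UMIs per cell (median 0) and 21 UMIs in Rhd-zero erythroid cells. Its level was 176 CPM in members and 8.93 CPM in Rhd-zero erythroid cells, a log2 ratio of 4.30 (3.67 to 5.01), and it was 3.06 (2.01 to 4.28) in the depth window. The per-cell ranges overlap at 0 to 3 UMIs, since 35 members had no Sphk1 UMI. At 5000 UMIs per cell, Sphk1 was detected in 37.7% of members (28.5% to 47.7%), 3.08% of Rhd-zero erythroid cells (1.25% to 6.25%) and 0.0511% of granule-rich LK cells.

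Cldn13 (chr5:134914249-134915526), a claudin of the tight junction family, had 303 UMIs in members, 12 in Rhd-zero erythroid cells and 4 in the 3072 LK cells outside both classes. Its log2 ratio of members over Rhd-zero erythroid cells was 4.58 (3.76 to 5.55), and 1.97 (0.60 to 3.49) in the depth window. Crip2 (chr12:113140236-113145506), a LIM-domain protein, had the highest ratio among genes with at least 200 UMIs, at 90.2 CPM in members and 3.40 CPM in Rhd-zero erythroid cells. That log2 ratio of 4.73 (3.72 to 5.96) was 2.10 (0.30 to 4.22) in the window, from 10 and 4 UMIs. C1qtnf12, a secreted C1q family protein, had UMIs in 98 of 107 members and 123 of 285 Rhd-zero erythroid cells, with a median of 5 and a maximum of 69 UMIs per member. Its log2 ratio was 3.10 (2.89 to 3.32), and 1.33 (0.85 to 1.82) in the window.

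The other genes of the 15 highest had smaller ratios in the depth window. Ccne1, cyclin E1, was at 133 CPM in members and 7.23 CPM in Rhd-zero erythroid cells, a log2 ratio of 4.20, but 0.55 (-0.69 to 1.77) in the window. Mt2, a metal-binding metallothionein, had a log2 ratio of 3.33 and 0.51 (-0.09 to 1.11) in the window. Lmna (lamins A and C), Hebp1 (a heme-binding protein), Add2 (beta-adducin of the membrane skeleton), Asns (asparagine synthetase), Cited4, Rrm2 (a ribonucleotide reductase subunit), Slc38a5 (an amino acid transporter) and Chchd10 (a mitochondrial protein) had log2 ratios of 2.28 to 3.18, and 0.77 to 1.77 in the window. Bex4 went the other way in the window, with a log2 ratio of 2.89 in all cells and -1.69 in the window, where it rested on 2 and 11 UMIs.

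**Figure D3:**
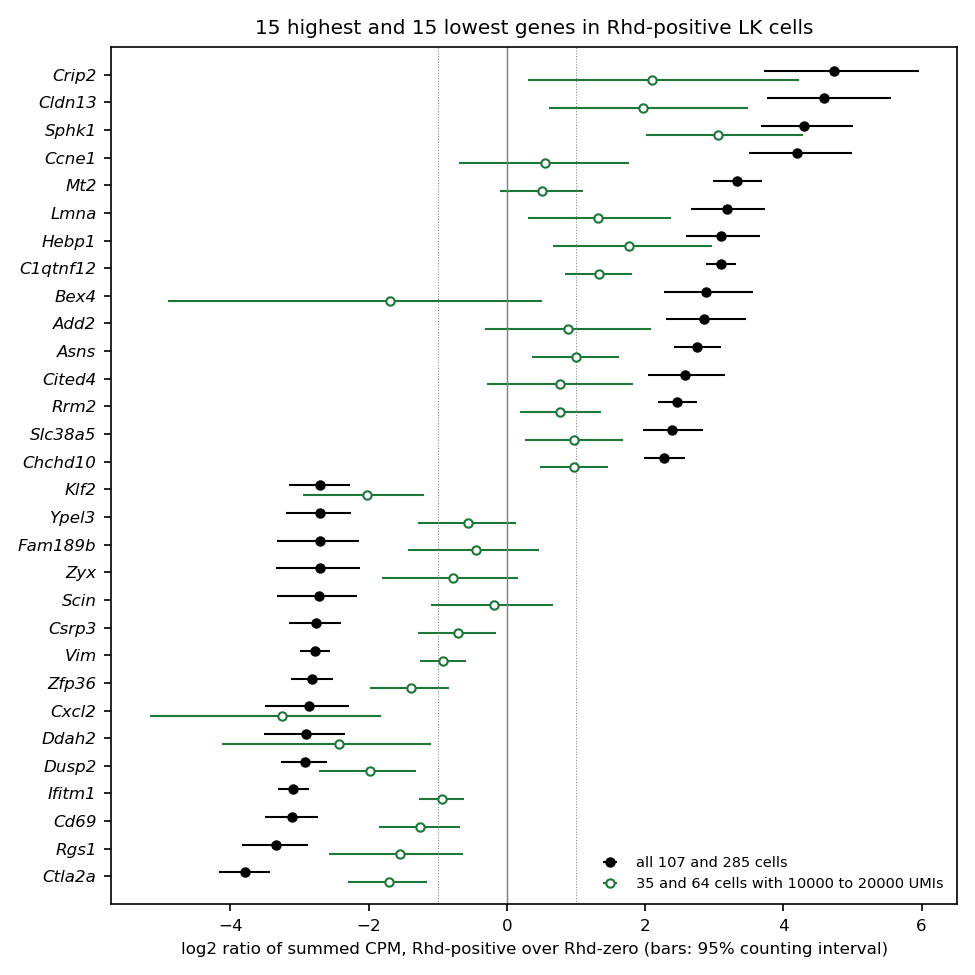
log2 ratio of summed CPM (x axis), Rhd-positive over Rhd-zero erythroid LK cells, for the 15 highest and 15 lowest genes with at least 200 UMIs; filled points use all 107 and 285 cells, open points the 35 and 64 cells with 10000 to 20000 UMIs, and bars are 95% counting intervals. Most open points lie nearer 0, Sphk1 stays at 3.06, and Bex4 changes sign.

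Among 29 measured genes of an erythroid progenitor list, 19 were at least 2-fold higher in members and 1 lower, with a median log2 ratio of 1.74. In the depth window 19 were measured, the median was 0.39, and the 4 past 2-fold were Sphk1, Smim1, Cpox and Tspan33. Rhag, the partner of RhD, had 107 UMIs in 47 members and 8 UMIs in 7 Rhd-zero erythroid cells, 43.3 and 3.40 CPM, a log2 ratio of 3.67 (2.64 to 4.92). In the window Rhag had 7 and 3 UMIs, a log2 ratio of 1.996 (-0.14 to 4.58), so that depth could not show a difference. Epor was at 83.7 CPM in members and 28.5 CPM in Rhd-zero erythroid cells, a log2 ratio of 1.55 (1.15 to 1.97), and 0.94 (0.09 to 1.80) in the window. Nxpe2 had 165 UMIs in members and 1 in Rhd-zero erythroid cells (log2 ratio 7.29, 4.80 to 12.61), and 5 and 1 in the window. Tmem56 had 62 and 0 UMIs, at least 19.6-fold higher against a floor of 3 UMIs over the class, and 2 and 0 UMIs in the window. Gata1 was at 148 CPM in members and 139.5 CPM in Rhd-zero erythroid cells, a log2 ratio of 0.08 (-0.13 to 0.30), and 0.34 (-0.09 to 0.76) in the window.

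Ermap, which marks the class by its label but was not part of the rule, had 0 to 10 UMIs per member (median 1) and 0 to 4 per Rhd-zero erythroid cell (median 0). Its level was 97.8 CPM in members and 34.0 CPM in Rhd-zero erythroid cells, a log2 ratio of 1.52 (1.15 to 1.91). In the depth window it was 59.7 and 53.6 CPM, a log2 ratio of 0.16 (-0.56 to 0.85). Near the Rhd threshold, Ermap was at 64.6 CPM in the 33 members with 1 Rhd UMI. It was at 60.9 CPM in the 101 Rhd-zero erythroid cells with at least 20 Klf1 and Car1 UMIs. At 5000 UMIs per cell, Ermap was detected in 38.7% of members, 10.6% of Rhd-zero erythroid cells and 0.0511% of granule-rich cells.

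The red cell membrane and skeleton list had 19 measured genes, 5 of them higher by 2-fold or more and 3 lower, with a median of 0.32, and 0.10 in the window. Cd24a, the heat-stable antigen, was at 629 CPM in members and 161 CPM in Rhd-zero erythroid cells, whereas Tmod3, which caps actin filaments, was at 25.9 and 63.0 CPM. In the window the log2 ratio was 0.59 (0.23 to 0.95) for Cd24a and -0.88 (-1.91 to 0.04) for Tmod3. Of 16 red cell enzyme and gas transport genes, 6 were higher by 2-fold or more and 0 lower, with a median of 0.53, and 0.26 in the window. Car2, carbonic anhydrase 2, was found in all 107 members with 1 to 366 UMIs (median 60) and in 274 of 285 Rhd-zero erythroid cells with up to 71 (median 6). Its level was 3733 CPM in members and 1043 CPM in Rhd-zero erythroid cells, a log2 ratio of 1.84 (1.78 to 1.90), and 0.58 (0.45 to 0.71) in the window. Pklr, the red cell and liver pyruvate kinase, had 136 and 15 UMIs, and 10 and 8 in the window (log2 ratio 1.10, -0.40 to 2.64).

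Heme synthesis genes were higher in members. Of 17 measured genes, 6 were at least 2-fold higher and 0 lower, with a median of 0.81, and 0.40 in the window. Cpox, coproporphyrinogen oxidase, was at 252 CPM in members and 54.5 CPM in Rhd-zero erythroid cells, a log2 ratio of 2.21 (1.93 to 2.50), and 1.05 (0.50 to 1.61) in the window. Fech, which inserts iron into heme, was at 103 and 29.4 CPM, and Tmem14c, a mitochondrial porphyrin transport protein, at 610 and 206 CPM. In the window the log2 ratio was 0.996 (0.25 to 1.75) for Fech and 0.54 (0.25 to 0.82) for Tmem14c. Of 21 iron genes, 5 were higher and 1 lower, with a median of 0.15 that the size factor brings to about 0, and 0.06 in the window. Tfrc, the transferrin receptor, had 173 UMIs in 63 members and 17 UMIs in 17 Rhd-zero erythroid cells, 69.9 and 7.23 CPM, a log2 ratio of 3.27 (2.55 to 4.09). Slc40a1, the iron exporter ferroportin, was at 41.6 and 8.93 CPM, with a log2 ratio of 1.15 (-0.15 to 2.50) in the window. In the window Tfrc rested on 9 and 8 UMIs, a log2 ratio of 0.94 (-0.60 to 2.52), and no difference was detectable at that depth.

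Globin RNA was sparse and uneven. A globin UMI was seen in 40 of 107 members (37.4%), 16 of 285 Rhd-zero erythroid cells (5.61%) and 116 of 1960 granule-rich LK cells (5.92%), at median depths of 23234, 7002 and 18455 UMIs. Hba-a1, an alpha globin gene, had 127 UMIs in 25 members, of which 1 cell held 29.9%, and 3 UMIs in Rhd-zero erythroid cells, a log2 ratio of 5.33 (3.75 to 7.63), and 7 and 1 UMIs in the window. Per UMI, the 4 globin genes were at 99.05 CPM in members, 8.93 CPM in Rhd-zero erythroid cells and 6.07 CPM in granule-rich cells. At 5000 UMIs per cell, Hba-a1 was detected in 9.43% of members (4.62% to 16.7%), 0.441% of Rhd-zero erythroid cells (0.0112% to 2.43%) and 0.409% of granule-rich cells (0.177% to 0.804%).

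Transcription factors of early progenitors were lower in members. Of 14 measured, 12 were at least 2-fold lower and 0 higher, with a median of -1.53, and -0.44 over the 5 measured in the depth window. Gata2 had a median of 1 UMI per member (0 to 11) and 2 per Rhd-zero erythroid cell (up to 17). Its level was 77.6 CPM in members and 337 CPM in Rhd-zero erythroid cells, a log2 ratio of -2.12 (-2.35 to -1.89), and -0.31 (-0.67 to 0.04) in the window. Meis1, a stem cell homeobox gene, had 17 and 109 UMIs and a log2 ratio of -2.75 (-3.59 to -2.01), and -1.60 (-3.15 to -0.31) in the window. Erythroid transcription factors as a list were near the rest of the genes (25 measured, 3 higher, 2 lower, median -0.27, and -0.07 in the window). Nfia, a nuclear factor I gene, had a log2 ratio of 1.55 and E2f4 of 1.46, whereas Zfp36l2, an RNA-binding protein that holds erythroid progenitors in self-renewal, was at -1.75. In the window Nfia was at 1.29 (0.23 to 2.39), E2f4 at 0.36 (-0.09 to 0.81) and Zfp36l2 at -0.80 (-1.17 to -0.44).

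Lists of other lineages and of stem cells were lower as well. Of 11 measured stem and multipotent genes 8 were at least 2-fold lower and 1 higher (median -1.66, and -0.49 in the window). Of 12 megakaryocyte genes 7 were lower and 1 higher (median -1.87, and -0.47 in the window), and of 6 mast and basophil genes 6 were lower (median -2.29, and -0.82 in the window). Gata2, given above as an early transcription factor, is also in the mast and basophil list. Itga2b, integrin alpha IIb of megakaryocytes and early progenitors, had 15 UMIs in 8 members and 149 UMIs in 92 Rhd-zero erythroid cells, a log2 ratio of -3.39 (-4.26 to -2.62), and -2.26 (-3.77 to -1.03) in the window. Cpa3, a mast cell carboxypeptidase, was at 17.4 and 96.1 CPM, and its log2 ratio of -2.47 was the same to 2 decimals in the window. The 1 higher megakaryocyte gene, Pf4, had 92.7% of its 109 UMIs in 1 member, and its log2 ratio of 1.84 became -3.31 in the window. Of 11 erythropoietin and STAT5 pathway genes, 1 (Epor) was higher and 5 were lower (median -0.93, and -0.42 in the window), with Pim1, a STAT5-induced kinase, at 84.5 CPM in members and 370 CPM in Rhd-zero erythroid cells, and a log2 ratio of -0.42 (-0.78 to -0.07) in the window. Of 14 granulocyte and monocyte progenitor genes, 6 were lower and 0 higher (median -0.47, and -0.96 in the window), and Irf8, a monocyte and dendritic cell factor, had 8 and 63 UMIs, and 2 and 26 in the window. Against Rhd-zero cells with at least 10 Klf1 and Car1 UMIs the median of this list was 0.15.

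Immediate early genes were lower in members without exception among the 16 measured, with a median of -2.45 and values of -3.27 to -1.82. The summed level of the list was 2218 CPM in members and 11032 CPM in Rhd-zero erythroid cells. In the depth window the median was -0.52 over 13 genes, 2 of them past 2-fold, at 4702 CPM in members and 6673 CPM in Rhd-zero erythroid cells. Rhd-zero erythroid cells were the high class for this list. Over all cells it was at 4265 CPM in LK cells outside both classes and 3118 CPM in granule-rich LK cells. Members over LK cells outside both classes had a median of -0.88, against -0.04 for all measured genes. Zfp36, an RNA-decay factor of this list, had 101 UMIs in 52 members and 674 UMIs in 212 Rhd-zero erythroid cells, a log2 ratio of -2.81 (-3.13 to -2.51), and -1.39 (-1.98 to -0.84) in the window.

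The 15 genes with the lowest ratios had log2 values of -3.78 to -2.70. Ctla2a, a cysteine protease inhibitor, stood at the end of the order, with 68 UMIs in 29 members (0 to 13 per cell) and 889 UMIs in 221 Rhd-zero erythroid cells (0 to 26 per cell). Its log2 ratio was -3.78 (-4.16 to -3.43), and -1.70 (-2.29 to -1.15) in the window. Vim, the intermediate filament vimentin, was at 78.0 CPM in members and 533 CPM in Rhd-zero erythroid cells, a log2 ratio of -2.77, and -0.92 (-1.26 to -0.59) in the window. Rgs1 (a regulator of G protein signalling), Cd69 (an early activation antigen) and Ifitm1 (an interferon-induced membrane protein) were at -3.34, -3.10 and -3.09, and at -1.55, -1.25 and -0.94 in the window. Cxcl2, a chemokine, had a log2 ratio of -2.87, and -3.25 (-5.17 to -1.82) in the window, from 4 and 65 UMIs.

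Of 43 S phase genes, 14 were at least 2-fold higher in members and 1 lower, with a median of 0.70. Their summed level was 5817 CPM in members, 3665 CPM in Rhd-zero erythroid cells and 5007 CPM in LK cells outside both classes. In the window the median was 0.25 over 31 genes, with 0 past 2-fold. Rrm2 was at 299 CPM in members and 54.0 CPM in Rhd-zero erythroid cells (log2 ratio 2.47, and 0.77 in the window), Cdc6, which licenses replication origins, at 60.6 and 20.4 CPM, and Ccne2, cyclin E2, at 33.6 and 8.08 CPM. In the window the intervals of Cdc6 (0.38, -0.56 to 1.30) and Ccne2 (0.94, -0.60 to 2.52) included 0. Of 46 G2/M genes, 0 were past 2-fold, and the median was 0.20, but -0.42 in the window with 7 of 28 at least 2-fold lower, among them Ube2c, a ubiquitin-conjugating enzyme of mitosis, at -1.84, and Cenpf, a kinetochore protein, at -3.40. The median of the G2/M list thus changed sign in the window, and was 0.22 after thinning. Of 18 G1 genes, 3 were higher and 3 lower (median -0.05, and 0.12 in the window). The CDK inhibitors Cdkn1a and Cdkn2d were at log2 ratios of -2.29 and -1.59, but at -0.70 (-1.70 to 0.21) and -0.13 (-0.91 to 0.61) in the window.

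Growth and respiration lists were higher by less than 2-fold. All 36 nuclear-encoded respiratory chain genes had a ratio above 0 by totals (0.12 to 0.89, median 0.57, and 0.17 in the window), the lowest of which falls below 0 under the median-ratio size factor, and 0 were past 2-fold. Their summed level was 19756.5 CPM in members, 13749 CPM in Rhd-zero erythroid cells and 17277 CPM in LK cells outside both classes. Nucleolus and ribosome assembly genes had a median of 0.41 over 33 genes and chaperones of 0.50 over 19, and 0.09 and 0.11 in the window. Nucleotide, polyamine and one-carbon genes had 5 of 22 at least 2-fold higher (median 0.63, and 0.15 in the window), with Tk1, thymidine kinase, at 129 CPM in members and 40.8 CPM in Rhd-zero erythroid cells, and a log2 ratio of 0.52 (-0.15 to 1.19) in the window. Ribosomal protein genes had a median of -0.09, and 0.013 in the window. Under the median-ratio size factor each ratio is lower by the shift given above, which is larger than the ribosomal protein median and smaller than the medians of the other lists in this paragraph in all cells.

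**Figure D4:**
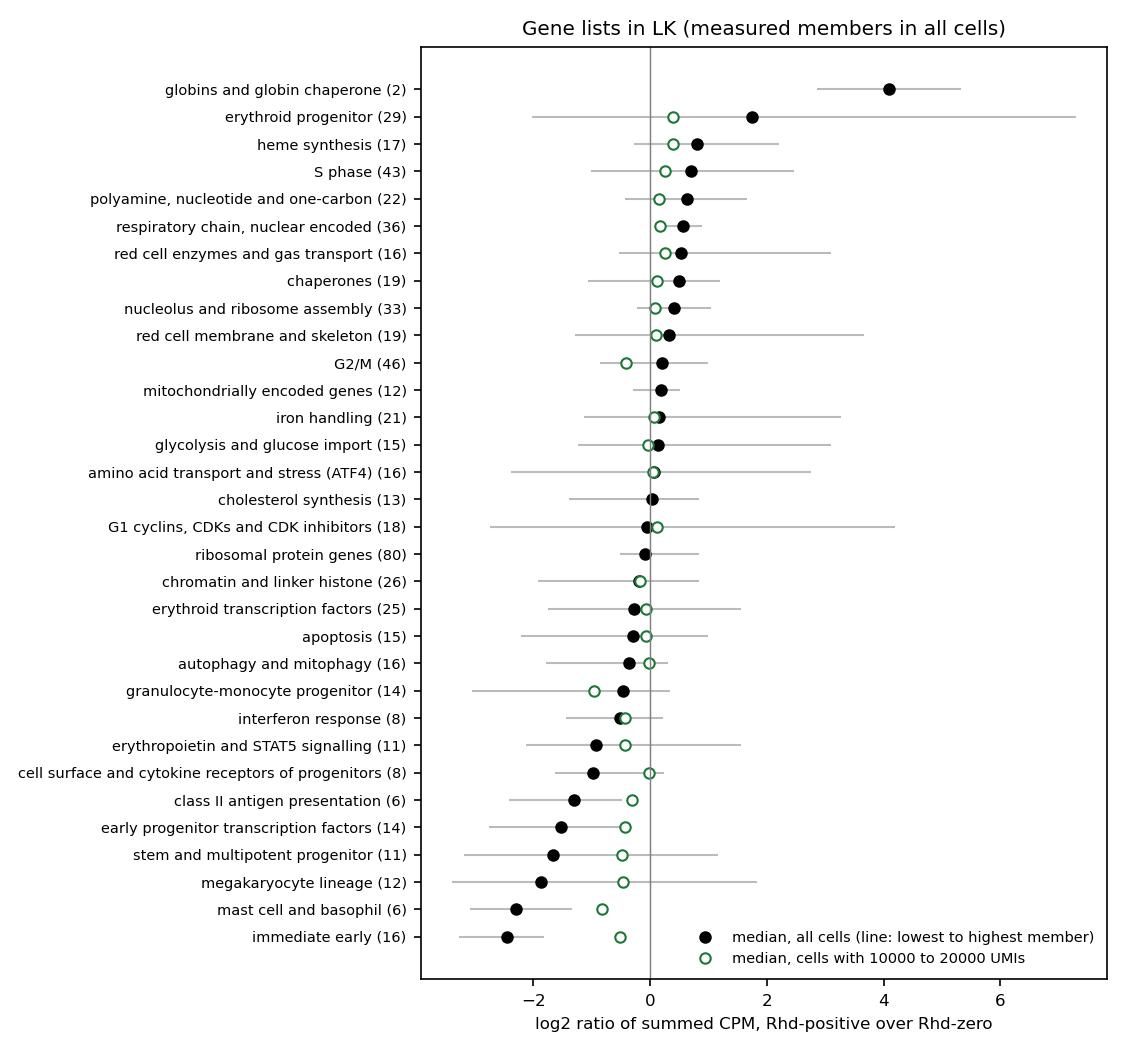
Median log2 ratio (x axis), Rhd-positive over Rhd-zero erythroid LK cells, for gene lists with at least 2 measured members (number in brackets); filled points use all cells, lines run from the lowest to the highest member, and open points use cells with 10000 to 20000 UMIs. The immediate early list has the lowest median, -2.45 in all cells and -0.52 in the depth window.

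Within the class, cells with more Rhd UMIs were also deeper, so that neither can be told apart from the other. The 33 members with 1 Rhd UMI had a median of 12786 UMIs, the 35 with 2 to 4 had 21225, and the 39 with 5 or more had 30964. The erythroid progenitor list had 3793 CPM in Rhd-zero erythroid cells, 5321 at 1 Rhd UMI, 6814 at 2 to 4 and 11956 at 5 or more. Heme synthesis genes had 1499, 1878, 2079 and 3363 CPM in the same order. Immediate early genes ran the other way, at 11032, 4933, 2641 and 945.5 CPM. So did mast and basophil genes, at 1335, 582, 272 and 58.0 CPM, and early transcription factors, at 1001, 590.5, 429 and 196 CPM. Gata2 is in both the mast and basophil list and the early transcription factor list, so their trends are not separate. Cpa3, Ms4a2, Gzmb, Prss34 and Mcpt8 summed to 121 CPM in Rhd-zero erythroid cells and 23.4 CPM in members. The whole mast and basophil list was at 1335 and 222 CPM there. Globin RNA was at 8.93, 15.6, 11.2 and 188 CPM, with its largest step at the end.

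Between members with 5 or more and with 1 Rhd UMI, 3872 genes were measured, of which 261 were at least 2-fold higher (6.74%) and 179 lower (4.62%), with a median of 0.14. With a median-ratio size factor the median was -0.05 and higher genes were 41.5% instead of 59.3% of those past 2-fold. Hebp1 was at 223 CPM at 5 or more and 11.1 CPM at 1 Rhd UMI, a log2 ratio of 4.32 (3.08 to 5.96). Cd24a was at 936 and 232 CPM, and Slc29a1, a nucleoside transporter, at 262 and 57.9 CPM. Apoe, apolipoprotein E, was at 87.4 CPM at 5 or more and 1573 CPM at 1 Rhd UMI, a log2 ratio of -4.17 (-4.48 to -3.87), and Lgals1, galectin-1, at 36.8 and 434.5 CPM. Gata2 was at 27.8 and 196 CPM. Of 28 measured erythroid progenitor genes 15 were higher and 1 lower (median 1.30), and of 12 immediate early genes 12 were lower (median -2.59). With cells of 10000 to 25000 UMIs, 5 and 26 cells remained, still at unlike depth (medians of 24360 and 13882.5 UMIs). Those medians were then 0.996 over 12 genes and -1.67 over 8, and of 1541 genes 58 were at least 2-fold higher (3.76%) and 122 lower (7.92%), so that higher genes were 32.2% of those past 2-fold.

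**Figure D5:**
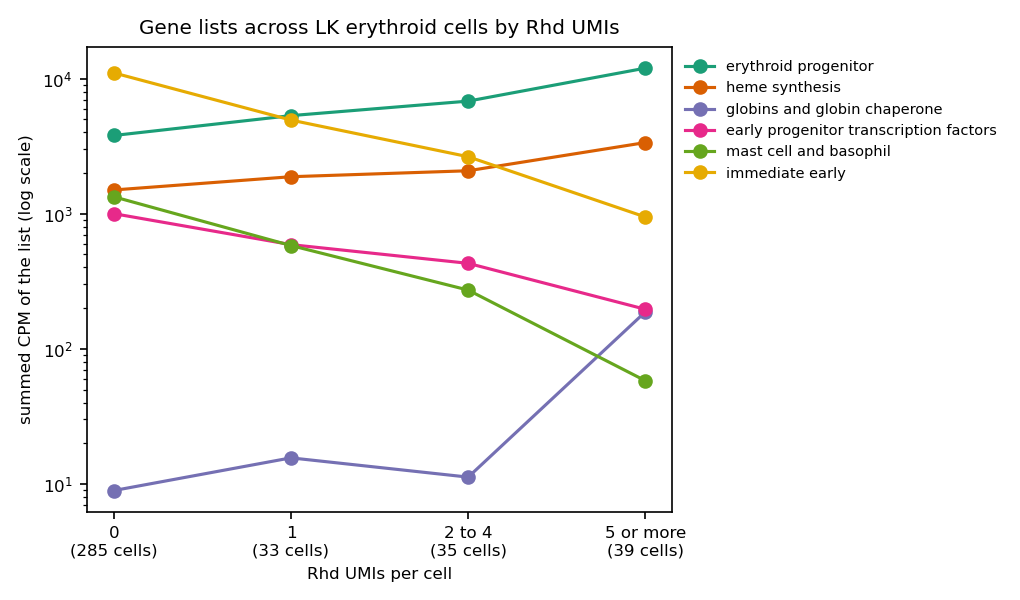
Summed CPM of 6 gene lists (y axis, log scale) in LK erythroid cells with 0, 1, 2 to 4 and 5 or more Rhd UMIs (x axis, with the number of cells). Immediate early genes run from 11032 CPM at 0 to 945.5 CPM at 5 or more Rhd UMIs, and erythroid progenitor genes from 3793 to 11956 CPM.

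The same rule found 412 of 4290 TBM cells (9.60%, 8.74% to 10.5%) and 0 of 1070 LSK cells (exact interval 0% to 0.344%). A further 192 TBM cells held a Rhd UMI without a Klf1 or Car1 UMI. Of 1778 TBM cells with at least 50 UMIs of the neutrophil genes S100a8 and S100a9, 114 held a Rhd UMI (6.41%) and 51 met the rule (2.87%), which are 12.4% of the 412. The part of free RNA in the TBM share was not tested. The globin share of UMIs was 0.00994% in Rhd-positive LK cells and 42.3% in Rhd-positive TBM cells. That share lowers the CPM of all other genes in TBM. Of 6393 genes, 3373 were at least 2-fold higher in LK (52.8%) and 728 lower (11.4%), with a median of 1.09. With globin UMIs left out of the totals, 1802 were higher and 1297 lower (58.1% of those past 2-fold higher instead of 82.2%, median 0.29), and with a size factor 1377 and 1559 (46.9%, median 0.02).

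Genes of terminal erythroid cells were lower in Rhd-positive LK cells by more than these shifts. Slc4a1 had 0 UMIs in Rhd-positive LK cells and 821 CPM in Rhd-positive TBM cells, a log2 ratio of -9.40 or lower against a floor of 3 UMIs. Alas2 was at 1.21 CPM in Rhd-positive LK cells and 1895 CPM in Rhd-positive TBM cells, and Rhd itself at 259 and 1399 CPM. Gata2 and Kit lay the other way. Gata2 was at 77.6 CPM in Rhd-positive LK cells and 2.71 CPM in Rhd-positive TBM cells, a log2 ratio of 4.84 (3.93 to 5.92), and Kit, the receptor used for the LK gate, at 34.4 and 4.60 CPM. Without globin UMIs in the totals their log2 ratios were 4.05 and 2.11. The early progenitor transcription factors as a list did not stand above the rest of the genes, with 3 of 6 at least 2-fold higher and a median of 0.91 (0.12 without globin UMIs in the totals). Nucleolus and ribosome assembly genes were at least 2-fold higher in 31 of 31 (median 2.84, and 2.05 without globin UMIs in the totals), with Bop1, a ribosome assembly factor, at 108 and 7.04 CPM. G2/M genes were at least 2-fold lower in 35 of 51 and higher in 0 (median -1.38, and -2.17 without globin UMIs in the totals). Sphk1 was at 176 and 55.3 CPM and Mt2 at 317 and 44.4 CPM. S100a8 and S100a9, at 4505 and 3416 CPM in Rhd-positive TBM cells and 1.62 and 0.404 CPM in Rhd-positive LK cells, reached 153419 and 99445 CPM in TBM cells with at least 50 of their UMIs that were in neither class.

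A comparison of Rhd-positive with Rhd-zero erythroid cells in TBM rested on 412 and 4 cells. It gave 387 of 4250 genes at least 2-fold higher (9.11%) and 1435 lower (33.8%), and no gene is read from it.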

How the data were processed

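The deposited counts are raw UMI counts per gene and barcode for 3 libraries, per the file headers and whole-number values. The submitters' processing notes name Cell Ranger 4.0.0 and mm10, and the sources used here do not give the annotation release or any earlier cell filter. The members and gene lists were chosen with earlier results of these data known. The LK file held 3560 barcodes, and the cell filter required 200 genes or more and no more than 10% of UMIs from mitochondrial genes. Scrublet called 3 of 3464 LK cells doublets (0.0866%), 2 of them members, too few to count as working. None was removed, so doublets remain. UMIs were summed per class and scaled to CPM. Levels of different genes were not compared, since a 3' count is not scaled by length. Ratios have exact conditional binomial 95% intervals, CPM exact Poisson and shares Clopper-Pearson intervals, all for counting error only. Genes with 0 UMIs in a class were set to a floor of 3 UMIs over the class. At least 2-fold is a description, not a test, because each gate has 1 library. Genes needed at least 50 UMIs over both classes. Named were the 15 genes at either end of the ratio order that had 200 UMIs or more (leaving out the rule genes, antigen receptor segments, and genes of the mitochondrial genome or of ribosomal proteins), up to 5 genes per list by absolute ratio, markers and both ends of the Rhd order. Smim1, Tspan33 and Ube2c, which are among the genes past 2-fold in the depth window, were named after their values were seen. Detection was compared after random thinning to 5000 UMIs. The depth window, the settings for LK over TBM and those for the Rhd order were chosen after seeing the data. Gene coordinates come from GENCODE M21 by gene ID, a release that may differ from the one behind the counts. Computation used Python 3.11.15, numpy 2.4.6, scipy 1.17.1, pandas 2.3.3, scanpy 1.11.5 and matplotlib 3.10.9, and the code was tested on simulated data.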

Additional observations from a re-analysis of the deposited data

How the results depend on the processing

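No paired analysis was possible because each gate is 1 library. The main counts of 301 higher and 661 lower genes of 6690 became 159 and 354 of 3705 when cells were thinned to 5000 UMIs before the rule, so that the shares, 4.29% and 9.55%, stayed close to the main 4.5% and 9.88%. They became 568 and 1559 of 9791 with at least 10 UMIs per gene (5.8% and 15.9%), 135 and 210 of 3217 with at least 200 (4.2% and 6.53%), and 9 and 70 of 3482 in cells of 10000 to 20000 UMIs (0.258% and 2.01%). Thinning before the rule left 65 members, 2.02% of LK cells, with medians of 1869 genes in members and 1864 in Rhd-zero erythroid cells. With at least 2 Rhd UMIs, members were 2.14% of LK with medians of 28327 UMIs and 4587 genes. Rhd-zero cells with at least 10 Klf1 and Car1 UMIs had medians of 7912.5 UMIs and 2521.5 genes. In TBM the lower genes numbered 921 with thinning, 3162 with at least 10 UMIs per gene and 461 with at least 200. For LK over TBM, higher genes numbered 1802 without globin UMIs in the totals, 1377 with a size factor and 1488 with thinning, and lower genes 1297 and 1559 with the first 2 of these. Members with 5 or more against 1 Rhd UMI had 58 higher genes in cells of 10000 to 25000 UMIs. In the depth window Bex4 reversed to -1.69, Mllt3 to -0.063 and Pf4 to -3.31, and Pf4 to -1.12 with thinning. The cause of these moves was not tested, except that a higher UMI minimum or fewer cells leaves fewer genes measured. Over all alternatives, 638 values of single genes stayed within their interval, 142 moved and 4 reversed. Of 391 list medians of the LK classes 375 stayed and 16 moved. Here list medians were judged by a rank-based interval over the members of the list, not by counting error, and only with at least 5 members measured. Under at least 1 alternative, 23 of 44 single genes past 2-fold and 5 of 7 list medians past 2-fold fell below 2-fold. No list median past 2-fold changed sign there, but 16 values of 8 smaller ones did, the largest of which was 0.467 in size in all cells. Sign changes were 18 of 123 list medians for LK over TBM and 16 of 89 for the Rhd order. For LK over TBM they include S phase (0.13, and -0.66 without globin UMIs in the totals), erythropoietin and STAT5 genes (0.53, and -0.27) and megakaryocyte genes (3.50, and -0.97 with thinning).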
